A study of Mus musculus with 6 samples.

Results

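The Fbxw genes of mouse chromosome 9 form a tandem array of near-copies, and 10 of them are described here in germinal vesicle (GV) oocytes, the fully grown oocytes that have not yet resumed meiosis. The 10 genes were chosen by name and position: of the 13 Fbxw genes of the array that have a row in the deposited table of 24421 genes, they have the lowest start coordinates. In genomic order they are Fbxw21, Fbxw13, Fbxw20, Fbxw14, Fbxw28, Fbxw22, Fbxw16, Fbxw19, Fbxw15 and Fbxw24. All lie on the minus strand of chromosome 9 (GRCm38), from 109139454 to 109626059. The set was put forward with results of the genotype comparison known, so its fold changes, adjusted p-values and counts of called genes are descriptions and not independent evidence.

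The study compared 2 genotypes with 3 mice each. Both were Ring1 -/- and Rnf2 f/f, and they shared a mixed background of FVB, 129/Sv and C57BL/6J. The genotype called DKO also carried Zp3-cre, a Cre recombinase driven by the zona pellucida 3 promoter, which is active in growing oocytes. The genotype called SKO had no Cre, so the control oocytes lacked Ring1 too. Females were about 3 months old, and each library was made from 15 GV oocytes of 1 mouse after granulosa cells had been pipetted off. The sample descriptions mark the libraries as repeat analyses of earlier ones.

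RING1 and RNF2 are the alternative catalytic subunits of Polycomb repressive complex 1 (PRC1), which ubiquitinates histone H2A at silenced genes and is found mainly at CpG-rich promoters. An F-box/WD40 (FBXW) protein is the substrate receptor of an SCF ubiquitin ligase: its F-box binds SKP1, which ties it to the cullin CUL1, and its WD40 repeats bind the substrate. The genes of this array are known for transcripts that are abundant in oocytes, and the substrates of most of the encoded proteins are not established.

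The 10 genes are copies of one another also in their promoters. RefSeq promoters (250 bases before to 50 after the start site, GRCm38.p6) were at hand for 8 of the 10, all but Fbxw13 and Fbxw22. Over the 28 pairs of these promoters, 84.9% to 97.7% of aligned bases were identical (median 90.2%). The closest pair was Fbxw14 and Fbxw28, with 7 differing bases. The 150 bases before the start site are given for 4 genes, chosen to show the first gene of the array, the most abundant one, the one with the largest fall among those with a RefSeq promoter, and 1 of the pair that was not called in the genotype comparison. They are written 5′ to 3′ on the minus strand, and capitals mark E-box words (CANNTG, the word bound by basic helix-loop-helix factors).
Fbxw21, chr9:109162023-109162172: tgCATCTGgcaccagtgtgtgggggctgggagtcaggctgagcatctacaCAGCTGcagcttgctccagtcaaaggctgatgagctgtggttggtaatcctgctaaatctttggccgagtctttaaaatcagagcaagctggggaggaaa
Fbxw28, chr9:109339660-109339809: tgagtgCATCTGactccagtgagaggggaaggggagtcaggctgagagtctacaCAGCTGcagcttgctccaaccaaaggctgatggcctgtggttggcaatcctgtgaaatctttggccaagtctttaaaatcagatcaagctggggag
Fbxw16, chr9:109449141-109449290: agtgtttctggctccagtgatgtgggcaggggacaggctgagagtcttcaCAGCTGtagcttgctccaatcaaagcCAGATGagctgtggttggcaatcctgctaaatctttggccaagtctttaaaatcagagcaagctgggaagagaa
Fbxw24, chr9:109626060-109626209: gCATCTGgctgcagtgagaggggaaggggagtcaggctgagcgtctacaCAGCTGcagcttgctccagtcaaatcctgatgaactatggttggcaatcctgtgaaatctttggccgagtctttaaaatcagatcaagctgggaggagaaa

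All 4 hold the E-box CAGCTG inside a long stretch that they nearly share. In the 8 promoters its first base lay between 125 and 80 bases before the start site, at -100 in Fbxw21 and Fbxw16, -101 in Fbxw15 and Fbxw24, -96 in Fbxw14 and Fbxw28, -125 in Fbxw19 and -80 in Fbxw20. The start sites used for Fbxw14 and Fbxw19 lie inside their RefSeq gene models, which extend further upstream. Their positions are thus counted from an internal start. The word CAGCTG was singled out after the sequences had been seen. In the same 150-base window it occurs in 8.21% of 27025 RefSeq promoters. The word CANNTG, searched on both strands over 300 bases, was in 8 of 8 promoters and in 72.1% of all. The words TAATTG and TAATTA, of the type bound by the oocyte homeodomain factor NOBOX, were in 0 of 8, against 8.15% and 5.31% of all promoters. TGATTG, of the type bound by LHX8, was in Fbxw16 alone (14.4% of all). CACGTG, which is itself a CANNTG word, and TATAAA were in 0 of 8 (7.24% and 14.2% of all). The promoters held 0 to 3 CpG dinucleotides per 300 bases, where the median of all promoters was 7. Fbxw20, Fbxw14, Fbxw28 and Fbxw16 had 0. All 8 promoters were below that median, so they offer no contrast between CpG-rich and CpG-poor promoters. The part of CpG content in the changes was not tested.

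The coding sequences are alike too, which bears on how reads are assigned. Their median identity was below that of the promoters, which were at hand for fewer genes. For Fbxw14 and Fbxw28 the coding sequences were the more alike, at 99.1% against 97.7%. In GENCODE vM21 each gene has 10 exons and 1392 to 1404 coding bases. Identity over the 45 pairs was 80.1% to 99.1%, with a median of 84.4%. Fbxw14 and Fbxw28, which are neighbours, differed at 13 of 1398 coding bases and shared an identical run of 345 bases. Fbxw22, the next gene, was 92.7% identical to Fbxw14, and Fbxw19, the next most alike, 87.5%. The following 60 coding bases, all in exon 5, show this for 5 genes. Lower case marks bases identical to Fbxw14 and capitals mark bases that differ from it, with minus-strand sequence of GRCm38 from GENCODE transcripts.
Fbxw14, chr9:109278825-109278884: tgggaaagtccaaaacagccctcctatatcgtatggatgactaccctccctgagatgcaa
Fbxw28, chr9:109330897-109330956: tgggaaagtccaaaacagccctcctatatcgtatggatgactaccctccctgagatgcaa
Fbxw22, chr9:109386696-109386755: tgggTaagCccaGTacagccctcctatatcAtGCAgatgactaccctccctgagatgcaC
Fbxw19, chr9:109486010-109486069: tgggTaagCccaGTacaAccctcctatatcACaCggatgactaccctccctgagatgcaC
Fbxw13, chr9:109185385-109185444: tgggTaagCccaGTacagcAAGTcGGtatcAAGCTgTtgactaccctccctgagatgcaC

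A read from this stretch cannot be placed in Fbxw14 rather than Fbxw28, whereas Fbxw22 and Fbxw19 differ from both at 9 of its 60 positions and Fbxw13 at 17. The stretch was picked to be identical in the pair and to differ most in the others. Over whole annotated transcripts, 41.1% of the 50-base windows of Fbxw14 and 38.5% of those of Fbxw28 occurred in no other gene. Between 78.5% and 94.2% of the windows of the 8 other members were unique. Fbxw14 had 56.9% of its windows in common with Fbxw28, and Fbxw28 had 61.5% in common with Fbxw14. With 100-base windows the unique shares were 60.8% and 57.7% for the pair and 93.6% to 100% for the others. Fbxw16 and Fbxw15 also shared 9.23% and 7.80% of their 50-base windows with annotated transcripts of genes other than the Fbxw genes of chromosome 9. The positions of these transcripts were not checked. The sources used here do not say how reads with several alignments were counted, so the values of Fbxw14 and Fbxw28 are uncertain individually and their sum is also given.

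**Figure D1:**
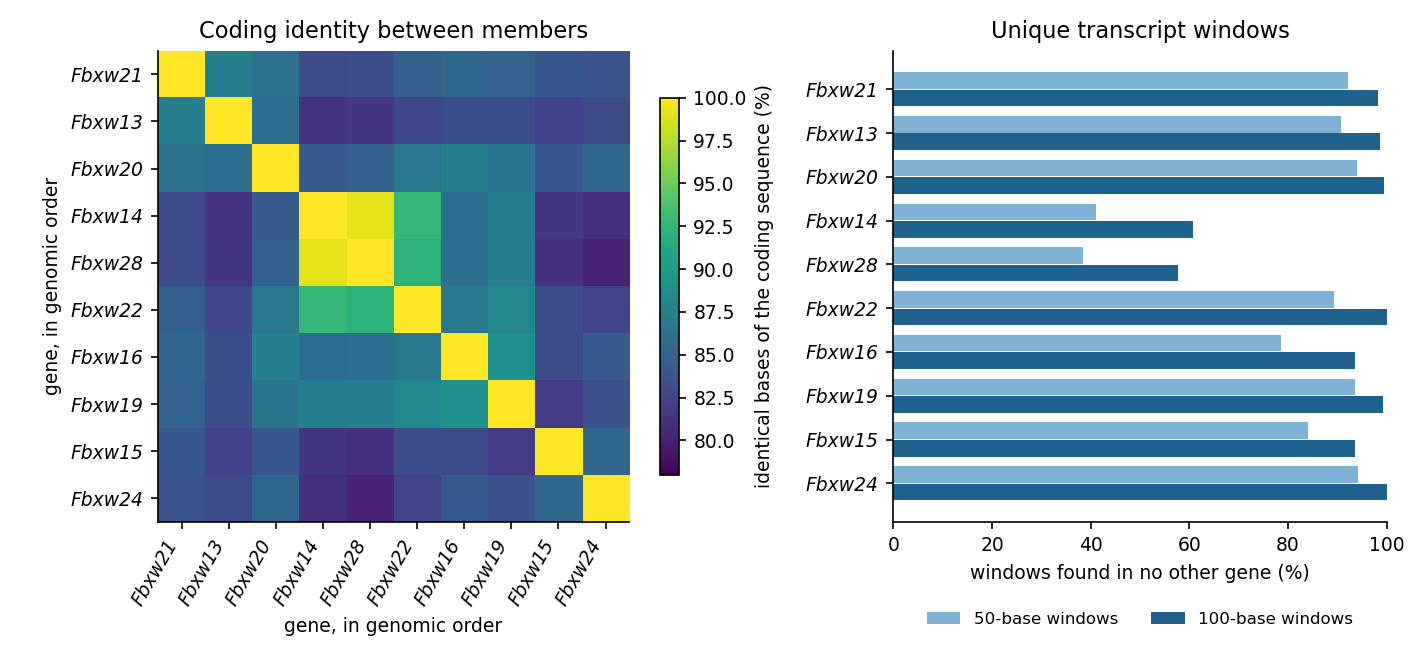
Left: share of identical bases (%) between the coding sequences of each pair of the 10 genes, both axes in genomic order. Right: share of 50-base (light) and 100-base (dark) windows of each gene's annotated transcripts that occur in no other gene (%). Fbxw14 and Fbxw28 form the brightest pair, at 99.1%, and have the shortest bars, at 41.1% and 38.5% for 50-base windows.

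The libraries held 15521975 to 26652745 counts, and 3 counts, the limit that a count of 0 allows, corresponded to 0.116 to 0.171 CPM. CPM are counts relative to library size, here always after scaling by edgeR's TMM method. RNA was amplified before sequencing, so reads are not independent molecules and this floor covers counting error only. Rnf2 fell from 190 ± 11.8 CPM (SD, n = 3) to 36.6 ± 17.5, a log2 fold change of -2.38 (SE 0.30, adjusted p = 0.000349, edgeR). Ring1 had at most 13 counts in any library. The counts cover the whole gene, and the sources used here do not give the position of the floxed exons. DKO libraries correlated with each other at 0.942 to 0.962 and SKO libraries at 0.973 to 0.977 (Pearson's r of log2 CPM across genes, which are not independent replicates).

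Of the 10 Fbxw genes, 8 fell in DKO oocytes, 0 rose, and 2, the near-identical neighbours Fbxw14 and Fbxw28, did not pass the test. A gene was called when its adjusted p in edgeR's two-sided quasi-likelihood test over all 14845 genes tested was under 0.05. All 10 genes passed the filter on low counts, each with at least 1147 counts in every library. The falls ranged from -0.58 for Fbxw22 to -1.66 for Fbxw13 on the log2 scale, so DKO levels were 66.9% to 31.6% of SKO levels. Over all tested genes 7.41% were called lower and 17.3% higher. Among the 2374 genes over 100 CPM in SKO oocytes, to which all 10 belong, the shares were 18.8% lower and 2.23% higher. The median log2 fold change was -0.88 over the 10 genes, 0.04 over all tested genes and -0.24 over the genes above 100 CPM. For 8 of the 10, every DKO library was below every SKO library in CPM, as for 19.6% of all tested genes. Since the set was put forward with this comparison known, nothing is read from these shares. Within pooled oocytes, less of a transcript in each oocyte and its loss from some of them cannot be told apart.

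**Figure D2:**
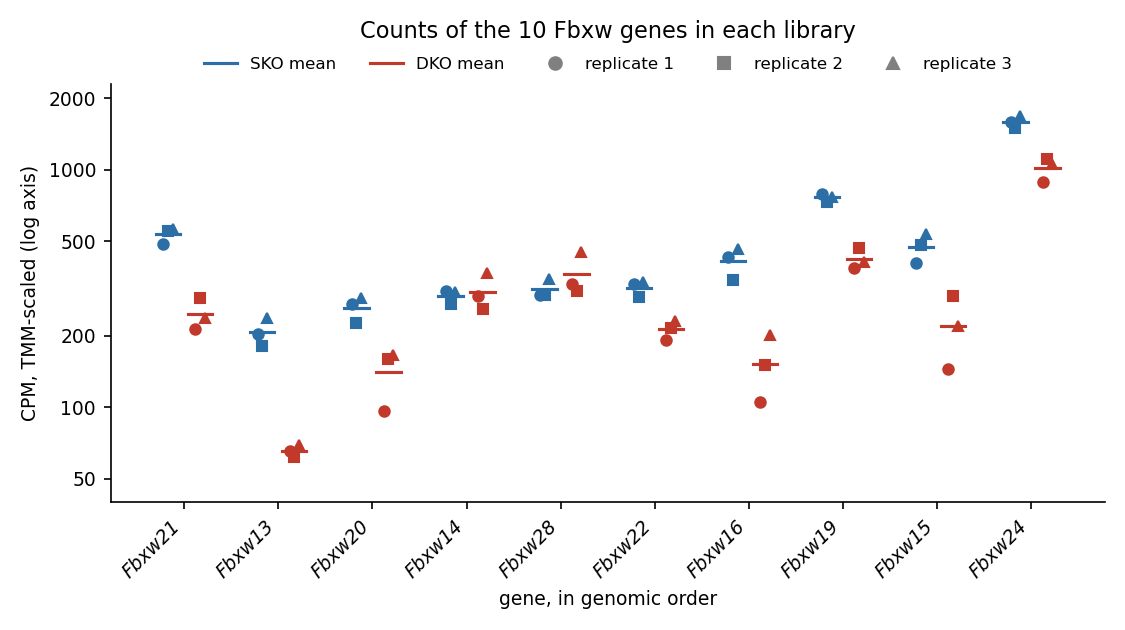
TMM-scaled CPM (log axis) of the 10 genes in genomic order in each SKO (blue) and DKO (red) library, with marker shapes for the replicates and bars for the group means. For 8 genes the DKO points lie below all SKO points, and for Fbxw14 and Fbxw28 the groups overlap.

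At the low-coordinate end of the array, Fbxw21 had 488, 555 and 565 CPM in the 3 SKO libraries and 214, 289 and 238 CPM in the 3 DKO libraries. DKO oocytes held 46.0% of the SKO level, with a log2 fold change of -1.12 (SE 0.17, adjusted p = 0.00106). Every DKO library lay far below every SKO library. Fbxw13, the next gene, had 203, 181 and 238 CPM in SKO and 65.3, 61.6 and 69.7 CPM in DKO. Its log2 fold change of -1.66 (SE 0.17, adjusted p = 9.66e-05) was the largest fall, and the SD of its DKO libraries, 4.04 CPM, was the smallest of the 10 genes. Fbxw20 had 272, 228 and 288 CPM in SKO and 96.5, 159 and 167 CPM in DKO. It fell by 0.90 on the log2 scale (SE 0.22, adjusted p = 0.0143), with DKO replicate 1 well under the other DKO libraries. Without SKO replicate 3 its adjusted p was 0.0597.

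Fbxw14 and Fbxw28 stood between falling neighbours on both sides. Fbxw14 had 310.1, 272 and 306 CPM in SKO and 295, 259 and 368 CPM in DKO, and the groups overlapped. Its log2 fold change was 0.06 (95% interval -0.33 to 0.44, adjusted p = 0.846). Fbxw28 had 296, 298 and 348 CPM in SKO and 330.05, 310.3 and 452 CPM in DKO. DKO replicate 3 was the highest library for both genes. The log2 fold change of Fbxw28 was 0.21 (95% interval -0.19 to 0.62, adjusted p = 0.431). The sign for Fbxw14 turned without DKO replicate 3 (-0.10) and without SKO replicate 2 (-0.01), and stayed positive for Fbxw28 in every setting tried. The sum of the pair, which does not depend on how reads were split between them, was 606, 570 and 654 CPM in SKO and 625, 569 and 821 CPM in DKO. Shared reads left out of the counts, or counted in both genes, would still change this sum. Entered as 1 row in the fit across all genes, an analysis added after the sequences had been seen, the pair had a log2 fold change of 0.14 (95% interval -0.25 to 0.53). This interval overlapped that of Fbxw22, -0.93 to -0.23, only at its edge. A difference between the pair and Fbxw22 was not tested.

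Fbxw22, the closest relative of the pair, had the smallest fall. Its SKO libraries had 332, 291 and 336 CPM and its DKO libraries 192, 217 and 232 CPM, a log2 fold change of -0.58 (SE 0.16, adjusted p = 0.0222). The groups did not overlap, but the call was lost without any 1 of the SKO libraries (adjusted p = 0.0564 to 0.0966) and with library totals in place of TMM (adjusted p = 0.0522). In order of identity to Fbxw14, the log2 fold changes were 0.21 for Fbxw28 (99.1%), -0.58 for Fbxw22 (92.7%), -0.86 for Fbxw19 (87.5%), -1.44 for Fbxw16 (85.9%), -0.90 for Fbxw20 (84.4%), -1.12 for Fbxw21 (83.1%), -1.11 for Fbxw15 (81.5%), -1.66 for Fbxw13 (81.4%) and -0.64 for Fbxw24 (81.0%). The 3 genes most like Fbxw14 thus had the smallest changes apart from Fbxw24, the least like it. Fbxw28 had 61.5% of its 50-base windows in common with Fbxw14, and no other member had more than 3.44%, the share of Fbxw22. The part of read sharing in this order was not tested.

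Towards the high-coordinate end, Fbxw16 had 429, 344 and 465 CPM in SKO and 105, 151 and 201 CPM in DKO. Its fall was the second largest, with a DKO level 37.0% of the SKO level (log2 fold change -1.44, SE 0.24, adjusted p = 0.00182). Fbxw19 had 794, 732 and 773 CPM in SKO and 387, 468 and 411 CPM in DKO, a log2 fold change of -0.86 (SE 0.15, adjusted p = 0.00251). Its libraries were close together within each genotype. Fbxw15 had 404, 484 and 538 CPM in SKO and 146, 294 and 219.9 CPM in DKO, with the widest relative spread among DKO libraries. Its log2 fold change was -1.11 (SE 0.24, adjusted p = 0.00825). Fbxw24, the most abundant gene of the set and number 42 of all genes by CPM in SKO oocytes, had 1590.0, 1496 and 1695 CPM in SKO and 891, 1117 and 1061 CPM in DKO. It fell by 0.64 (SE 0.16, adjusted p = 0.0136), a DKO level 64.2% of the SKO level. Its call was lost without SKO replicate 1 (adjusted p = 0.0529) or SKO replicate 3 (adjusted p = 0.0670).

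DKO replicate 1 was the lowest DKO library for 7 of the 10 genes, and SKO replicate 3 was the highest SKO library for 8. How often these libraries were extreme over all genes was not computed, so no trait of the array is read from this pattern. DKO replicate 1 also had the fewest counts, 15521975, and the part of depth in this pattern was not tested. Without SKO replicate 3 the number of genes called lower was 5, and over the other alternatives it was 6 to 8. Fbxw21, Fbxw13, Fbxw16, Fbxw19 and Fbxw15 were called in all 12 alternatives run for each gene, and Fbxw14 and Fbxw28 in 0.

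The 3 remaining genes of the array with a row continue to higher coordinates. Fbxw18 fell from 733 ± 130.3 CPM (SD, n = 3) to 296 ± 139, a log2 fold change of -1.31 (SE 0.31, adjusted p = 0.0116). Fbxw26 fell from 269 ± 40.6 to 133 ± 52.7 CPM (-1.01, SE 0.27, adjusted p = 0.0222), a call lost without SKO replicate 2 (adjusted p = 0.0584) or SKO replicate 3 (adjusted p = 0.0789). Fbxw27, the last, had 152 ± 6.60 CPM in SKO and 128 ± 23.4 in DKO, and the groups overlapped (-0.25, 95% interval -0.65 to 0.14, adjusted p = 0.324). RefSeq has 2 more Fbxw genes on chromosome 9, Fbxw23 and Fbxw25. Their expression was not analysed here, but their transcripts entered the window comparison, in which Fbxw16 shared 7.56% of its 50-base windows with Fbxw23.

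Of the 5 nearest protein-coding genes on each side of the array, 8 had a row and 6 passed the filter. Of these 6, 0 were called lower and 1 higher, where 7.41% and 17.3% of all tested genes were. With so few genes nothing is read from these counts. Spink8, a serine protease inhibitor gene just past Fbxw27, was called higher at very few counts: 7, 2 and 2 in SKO and 22, 21 and 17 in DKO, for a log2 fold change of 2.60 (SE 0.75, adjusted p = 0.0294). Plxnb1, which encodes a semaphorin receptor and lies before Fbxw21, had 65.0 ± 2.29 CPM in SKO and 48.7 ± 13.8 in DKO (-0.41, 95% interval -0.90 to 0.07). Cdc25a, a cell cycle phosphatase gene past the other end, had 125 ± 7.49 and 108 ± 15.5 CPM (-0.21, 95% interval -0.59 to 0.16). Trex1, Tma7 and Nme6, at under 7 CPM, did not pass the test either. The 95% interval of Spink8, 0.94 to 4.27, lay above those of all members, whose highest upper limit was 0.62, for Fbxw28. Intervals of the other tested neighbours overlap those of several members. A difference between array and neighbours was not tested, for Spink8 or for the others.

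**Figure D3:**
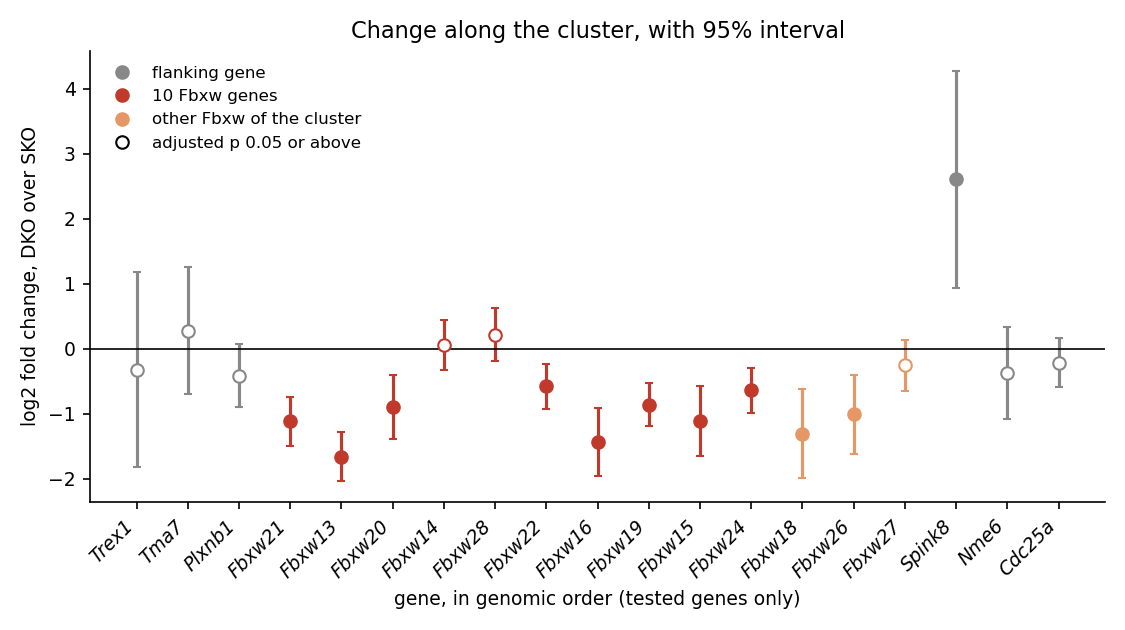
Log2 fold change, DKO over SKO, with its 95% interval for the tested genes in genomic order: flanking genes (grey), the 10 Fbxw genes (red) and the 3 other Fbxw genes of the array (orange). Filled points passed the all-gene threshold of 0.05. The values run from -1.66 (Fbxw13) to 0.21 (Fbxw28) among the 10 genes, and Spink8 alone rose.

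Summed over the 10 genes, SKO libraries had 5118, 4881 and 5551 CPM and DKO libraries 2721, 3325 and 3419 CPM. The groups did not overlap, and the mean in DKO was 60.9% of that in SKO. The genes took 0.461% to 0.511% of all counts in SKO libraries and 0.308% to 0.357% in DKO libraries. Without Fbxw14 and Fbxw28 the sum in DKO was 54.3% of SKO, and over all 13 genes of the array with a row it was 58.6%.

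Levels of different genes were compared per length, as TMM-scaled CPM per kilobase of the gene lengths in the deposited table. In SKO oocytes the order was Fbxw24 (1070 ± 66.7, SD, n = 3), Fbxw19 (524 ± 21.4), Fbxw15 (318 ± 45.1), Fbxw16 (273 ± 40.9), Fbxw21 (223 ± 17.5), Fbxw14 (197 ± 14.0), Fbxw22 (175 ± 13.7), Fbxw20 (174 ± 20.8), Fbxw28 (171 ± 15.9) and Fbxw13 (139.8 ± 19.3). From Fbxw15 to Fbxw28 each gene overlapped the next in its libraries. In DKO oocytes Fbxw24 (686 ± 79.0) and Fbxw19 (289 ± 28.3) again came first and Fbxw13 (44.1 ± 2.72) last. Fbxw14 (205 ± 37.2) and Fbxw28 (198 ± 41.9) stood at ranks 3 and 4 there, against ranks 6 and 9 in SKO. They overlapped each other, and both overlapped Fbxw15 (147 ± 49.8), which came next. The deposited lengths of some genes differ from those of the GENCODE coding transcripts used above. For Fbxw28 they are 1839 and 1497 bases, for Fbxw14 1499 and 1786, and for Fbxw21 2401 and 1512. The order depends on these lengths, and for Fbxw14 and Fbxw28 also on how shared reads were counted.

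The make-up of the family has the same limits and is given as a description, with no test. Fbxw14 made up 6.05% ± 0.302 (SD, n = 3) of the summed per-length level of the 10 genes in SKO and 10.4% ± 1.87 in DKO. For Fbxw28 the shares were 5.22% ± 0.217 and 10.01% ± 1.75. Both were higher in every DKO library than in every SKO library, though their own levels overlapped between genotypes. Fbxw24 stayed the leading gene with 32.8% in SKO and 34.6% in DKO, and Fbxw22 had 5.35% and 5.91%. The shares of Fbxw24 and Fbxw22 were also higher in every DKO library, though both genes were called lower. Fbxw21 had 6.85% in SKO and 5.19% in DKO, Fbxw16 had 8.34% and 5.02%, and Fbxw13 had 4.27% and 2.25%, each without overlap.

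**Figure D4:**
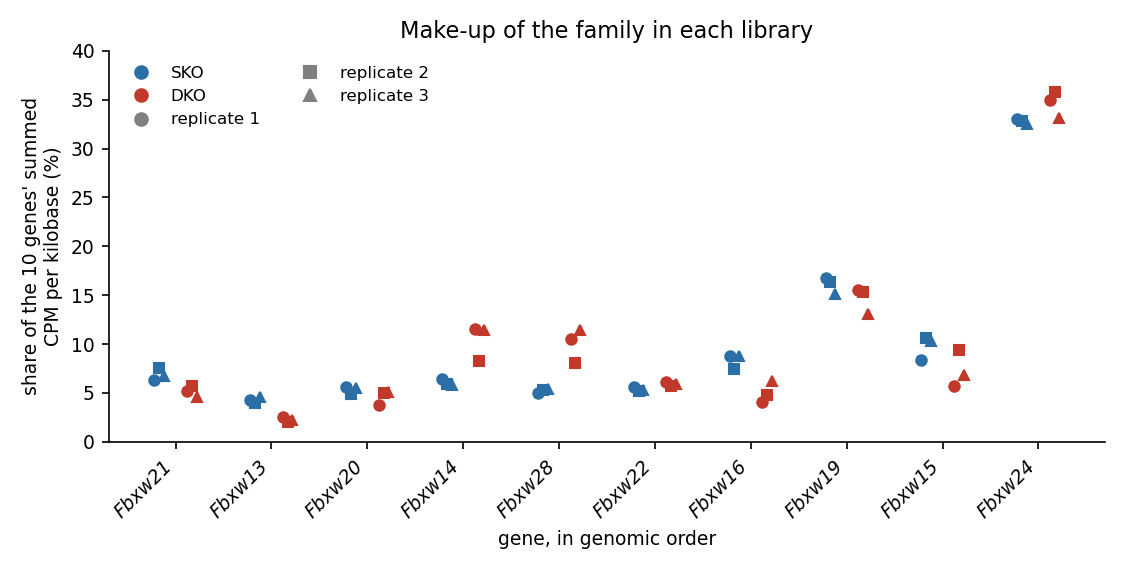
Share of each gene in the 10 genes' summed CPM per kilobase (%) in each SKO (blue) and DKO (red) library, in genomic order, with marker shapes for the replicates. Fbxw14 and Fbxw28 have shares of 8.06% to 11.5% in DKO libraries, above all SKO libraries, and Fbxw24 has the highest share in all 6 libraries.

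The Fbxw genes elsewhere in the genome were taken with Btrc, the gene of beta-TrCP, an FBXW protein that targets phosphorylated beta-catenin. Of these 10 genes, 1 was called lower, 0 higher and 9 not, with a median log2 fold change of -0.42. The called gene was Fbxw4, which fell from 47.6 ± 6.85 to 28.3 ± 6.54 CPM (-0.75, SE 0.23, adjusted p = 0.0365). Fbxw7, whose product targets cyclin E, had 27.1 ± 3.49 CPM in SKO and 45.1 ± 14.0 in DKO (0.73, SE 0.25, adjusted p = 0.0562). Btrc had 247 ± 17.5 and 240.04 ± 27.6 CPM (-0.04). No test compared these genes with the array as groups.

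Of 51 tested genes for other F-box proteins, 5 were called higher and 2 lower (median log2 fold change -0.05). Fbxl7 rose by 0.92 (SE 0.17, adjusted p = 0.00374) and Fbxo32, the muscle atrophy F-box gene, by 1.97 (SE 0.48, adjusted p = 0.0137). Fbxl2 fell by 0.99 (SE 0.19, adjusted p = 0.00446), and Fbxl16 had 0 counts in SKO and 5.48 ± 3.10 CPM in DKO. Among 34 genes for the SCF core and its regulators, 3 were called higher and 2 lower (median -0.19). The higher ones were Cops7b, a subunit of the COP9 signalosome that removes NEDD8 from cullins (1.29, SE 0.21, adjusted p = 0.00168), and the ubiquitin-conjugating enzyme genes Ube2r2 (1.52, SE 0.27, adjusted p = 0.00251) and Ube2d1 (0.9995, SE 0.21, adjusted p = 0.00641). Dcun1d1, a cullin neddylation cofactor, fell by 0.60 (SE 0.17, adjusted p = 0.0274). The core subunits did not pass: Skp1 had 911 CPM in SKO and 685 in DKO (adjusted p = 0.0972), and Cul1 1302 and 1041 (adjusted p = 0.274).

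Of 13 transcription factors of oocyte growth, 3 were called higher and 0 lower, where 17.3% and 7.41% of all tested genes were. The 10 others did not pass the test, and the median log2 fold change over the 13 was -0.09. Sohlh2 rose from 4.60 ± 1.70 to 51.4 ± 7.15 CPM (3.48, SE 0.30, adjusted p = 3.08e-05), and its partner Sohlh1 from 0.382 ± 0.440 to 22.7 ± 15.1 CPM (5.85, SE 0.93, adjusted p = 0.00148). Both encode basic helix-loop-helix factors of early oocyte differentiation. Obox3, an oocyte homeobox gene, rose by 2.78 (SE 0.63, adjusted p = 0.00948). Nobox had 814 CPM in SKO and 764 in DKO (adjusted p = 0.757), and Lhx8 208 and 257 (adjusted p = 0.250). Figla had 10.2 CPM in SKO and 6.39 in DKO (adjusted p = 0.124), and Obox5 339 and 226 (adjusted p = 0.0959). For Figla and Obox5 every DKO library was below every SKO library, though neither was called.

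Oocyte markers were also lower in part. Of 12, 7 fell, 0 rose and 5 did not pass the test (median log2 fold change -0.65), and 0 were without counts. Their summed level was 20752 to 21966 CPM in SKO libraries and 12301 to 15352 CPM in DKO libraries, well above the sums of the other marker lists in both genotypes. Bmp15, an oocyte growth factor gene, fell by 0.68 (SE 0.14, adjusted p = 0.00684). Gdf9 had 5658 ± 648 CPM in SKO and 3997 ± 1480 in DKO (adjusted p = 0.164), and Nlrp5 2333 ± 267 and 1858 ± 227 (adjusted p = 0.171). Zp3, whose promoter drives the Cre, had 2308 CPM in SKO and 1409 in DKO (adjusted p = 0.0210).

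Markers of follicular somatic cells also differed between genotypes. Of 12 granulosa and cumulus markers 11 were tested, 5 were called higher and 1 lower, with summed levels of 120 to 151 CPM in SKO and 219 to 249.6 CPM in DKO. The 5 called higher were Fshr, the receptor of follicle-stimulating hormone (0.506 CPM in SKO and 30.7 in DKO, log2 fold change 5.91), Wt1 (0.476 and 5.29 CPM, 3.46), Inhba (1.35 and 5.44 CPM, 2.01), Cyp11a1 (14.6 and 36.9 CPM, 1.34) and Nr5a2 (79.2 and 117 CPM, 0.56). The 1 called lower was Cyp19a1, the aromatase gene (30.0 and 16.99 CPM, -0.82). Nr5a2, Cyp11a1 and Cyp19a1 were the most abundant by the mean over both genotypes. None of the 12 was at 0 in every library, and Amh (1.63 and 0.795 CPM) did not pass the test while Foxl2 (0.176 and 1.18 CPM) was below the filter. Of 10 markers of theca, stroma and endothelium 6 were tested, 4 were called higher and 1 lower, with sums of 95.9 to 128 CPM in SKO and 77.7 to 94.2 CPM in DKO. Pecam1 made up most of these sums and was the 1 called lower, with 109.6 CPM in SKO and 61.0 in DKO. Dcn (0.519 and 3.43 CPM, log2 fold change 2.71), Pdgfra (0.766 and 4.99 CPM, 2.69), Kdr (3.68 and 11.6 CPM, 1.65) and Col1a1 (2, 1 and 2 counts in SKO and 31, 22 and 32 in DKO) were called higher, against the direction of the sums. Of 8 blood and immune markers 2 were tested and 0 called, namely Cd68 (2.02 CPM in SKO and 2.47 in DKO) and Itgam (1.42 and 0.494 CPM). Both globin genes had 0 counts in all libraries, and the sums were 2.05 to 4.39 CPM in SKO and 3.99 to 5.41 CPM in DKO. The part of somatic RNA in the falls of the Fbxw genes was not tested.

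The genes most like the array across the 6 libraries were found by the root mean square difference between each gene's centred log2 CPM and the mean profile of the 10 genes, among 11644 candidates. Among the most alike were Nlrp4g (0.0554), Mettl7a3 (0.0633), Atg13 (0.0641) and Katnal2 (0.0665). These 4 had their lowest value in DKO replicate 1, as the mean profile did, and log2 fold changes of -0.87 to -0.77. Mettl7a3 did not pass the test (adjusted p = 0.0718). The members themselves differed from their own mean by 0.102 for Fbxw24 to 0.461 for Fbxw14 and 0.530 for Fbxw28. The outside genes were picked as the smallest differences among 11644 candidates and the members were not, so nothing is read from this contrast.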

How the data were processed

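RNA-seq libraries of pooled mouse GV oocytes were compared, 3 DKO against 3 SKO, each from its own mouse. The deposited table held raw counts for each Entrez identifier, not normalized by the authors, with a gene length in bases and 0 unused sample columns. The submitters' processing notes list STAR 2.5.0a, GRCm38 and mm10. The sources used here do not give the counter, annotation, strand handling or treatment of multiply aligned reads. RNA was amplified with the Ovation kit per the labels' protocols.

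Of 24421 identifiers, 24387 matched RefSeq. Tests used edgeR 4.0.16 in R 4.3.3: filterByExpr (minimum count 10, minimum total 15), TMM, the two-sided quasi-likelihood test and Benjamini-Hochberg adjustment over 14845 genes, called under 0.05. Standard errors were derived from the F statistic. The script was tested on simulated data. DESeq2 1.42.0, other scalings and filters, a replicate block and leaving out each library were alternatives.

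Windows and coding identity came from GENCODE vM21 transcripts, and promoters from RefSeq (GRCm38.p6). Windows were matched to annotated transcripts, not to the genome. Coding sequence identity was used in place of the planned protein identity. The 150 bases before the start site were printed only where they lie outside the RefSeq gene model. Motifs were searched on both strands.

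The members and gene lists were chosen with earlier results of these data known. Genes named, by rule, were the members, other array genes, the 5 nearest protein-coding genes on each side, up to 4 called genes of smallest adjusted p per list, the 3 most abundant of each marker list, the 5 most alike genes (1 of them is not reported here), and Rnf2 and Ring1. Zp3, Amh, Foxl2, Fshr, Wt1, Inhba, Col1a1, Dcn, the globin genes, Skp1, Cul1, Btrc, Fbxw7, Nobox and Lhx8 were named outside this rule, after their values had been seen. The same holds for Figla and Obox5.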

Additional observations from a re-analysis of the deposited data

How the results depend on the processing

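The number of the 10 genes called lower was 8 as reported and 5 to 8 when a library was left out, lowest without SKO replicate 3. It was 7 with library totals and 8 with DESeq2 size factors, the Wald test, no filter, a stricter filter, and Fbxw14 and Fbxw28 as 1 row (8 of 9 rows, a setting added after seeing the data). The number called higher was 0 throughout. The median log2 fold change stayed between -0.97 and -0.73, and the log2 ratio of the summed CPM, -0.72 as reported, between -0.78 and -0.56. Fbxw14 changed sign without DKO replicate 3 (-0.10) and without SKO replicate 2 (-0.01). Its range with a library left out was -0.10 to 0.16, and it was not called. Over all genes, 1100 were called lower, 596 with library totals and 434 to 1501 with a library left out, lowest without SKO replicate 3, with 516 without SKO replicate 1 and 464 without SKO replicate 2. Leaving out a library leaves fewer samples. For the library totals the cause was not tested. Under library totals the median over all genes was 0.20 on the log2 scale (0.04 with TMM), and lower genes made up 17.02% of the calls (30.0% with TMM).

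Same-numbered DKO and SKO libraries deviated together with correlations of 0.139, 0.0773 and 0.0479, so the numbers were not taken to pair the mice, although each DKO library correlated best with the SKO library of its own number. With a replicate block 8 of the 10 genes were called lower and 0 higher, and over all genes 1364 lower and 2651 higher, against 1100 and 2567 without it. With 3 mice a group and the p-values measuring only the spread between them, the intervals of Fbxw14 and Fbxw28 do not exclude changes of up to 0.44 and 0.62 on the log2 scale.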
